A study of Mus musculus with 50 samples.

Results

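The 40 genes described here are 17 genes of DNA replication and S phase entry and 23 genes of the G2 phase and mitosis, abbreviated below as S genes and G2/M genes. They were chosen by symbol, as a list of cell cycle genes, with earlier results of these data known. Counts of them set beside a share of all genes are therefore descriptions. Each symbol was matched to its Ensembl identifier in the count table. All 40 were found among 37469 gene identifiers, and all 40 were among the 19327 genes that passed the filter on low counts and were tested. The S genes comprise the replicative helicase and its loading factors (Mcm2, Mcm3, Mcm4, Mcm5, Mcm6, Mcm7, Gins2, Cdc6 and Cdt1), enzymes of deoxynucleotide supply with the sliding clamp (Tyms, Rrm1, Rrm2 and Pcna), and regulators of S phase entry (Ccne1, Ccne2, E2f1 and Uhrf1). The G2/M genes comprise cyclins, mitotic kinases and their regulators (Cdk1, Ccna2, Ccnb1, Ccnb2, Aurka, Aurkb, Plk1, Cdc20 and Foxm1), kinetochore and spindle checkpoint genes (Bub1, Bub1b, Cenpe, Cenpf and Birc5), spindle, motor and cytokinesis genes (Kif11, Kif20a, Kif23, Tpx2, Nusap1 and Depdc1b), and Mki67, Top2a and Pimreg.

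RNA was sequenced from 48 mouse sarcomas and from 2 libraries of the sarcoma line 402230. Primary tumors were p53/MCA sarcomas, induced in the hind leg (gastrocnemius) of 129/SvJae mice with the Trp53 fl/fl genotype by injecting an adenovirus that carries Cre recombinase, which deletes Trp53 in the infected cells, followed by the carcinogen 3-methylcholanthrene (MCA). Transplants were grown from cells of the single line 402230, which came from 1 such tumor, in the gastrocnemius of syngeneic mice, so the 16 transplants share 1 tumor of origin while each of the 32 primary tumors arose on its own. In both models the tumor cells lacked Trp53 by design and the infiltrating host cells did not. Each model was split into 4 treatments: no radiation (0 Gy) or a single dose of 20 Gy, each with either an isotype control antibody or an antibody against the checkpoint receptor PD-1, and tumors were collected 3 days later. There were 8 primary tumors and 4 transplants in every treatment, with a separate animal named for each library.

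Cells enter S phase when E2F factors, released from the retinoblastoma protein by cyclin-dependent kinases, switch on the genes of DNA replication. Genes of G2 and mitosis are switched on later, by B-Myb and FoxM1 acting with the MuvB complex, and their promoters typically carry CHR elements and CCAAT boxes. The same MuvB core forms the repressive DREAM complex, and after DNA damage the p53 target Cdkn1a, which encodes the kinase inhibitor p21, drives this repression. In whole tumor RNA a lower level of such genes can come from fewer cycling cells or from less of the RNA in each cell, and these cannot be told apart here.

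Promoter sequences were taken from RefSeq for build GRCm38.p6, and 30 of the 40 genes had an entry. Entries were not found for Mcm4, Gins2, Ccne2, Ccna2, Aurkb, Foxm1, Kif20a, Tpx2, Depdc1b and Pimreg. The 250 bases before each transcription start were searched on both strands, counting overlapping matches, for 4 E2F words (the word TTCCCGC, the word TTGGCGC, the word TTCGCGC and the word TTGCCGC), for 2 CHR words (the word TTTGAA and the word TTCGAA) and for CCAAT. An E2F word was present in 7 of 14 S promoters (50%) and in 3 of 16 G2/M promoters (18.8%), against 9.01% of all genes with an entry. A CHR word together with CCAAT was present in 2 of 14 S promoters (14.3%) and 7 of 16 G2/M promoters (43.8%), against 7% of all genes, and at least 2 CCAAT words were present in 6 of 14 S promoters (42.9%) and 9 of 16 G2/M promoters (56.2%), against 11.5% of all genes. A match to these short words is a description of the letters and not a bound site.

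Stretches of 6 promoters are shown, 3 S promoters that hold an E2F word and 3 G2/M promoters that hold a CHR word with CCAAT. RNA values of these genes other than Mcm6 follow below. They were picked for those words and say nothing of the other promoters. Each is the 200 bases that end at the base before the RefSeq start, read along the gene's strand, with every E2F, CHR and CCAAT word in capitals. Mcm6 lies at chr1:128359706-128359905 on the minus strand, Mcm5 at chr8:75109309-75109508 on the plus strand and Rrm1 at chr7:102441495-102441694 on the plus strand. Mki67 lies at chr7:135716380-135716579 on the minus strand, Ccnb2 at chr9:70421555-70421754 on the minus strand and Top2a at chr11:99024190-99024389 on the minus strand.
Mcm6: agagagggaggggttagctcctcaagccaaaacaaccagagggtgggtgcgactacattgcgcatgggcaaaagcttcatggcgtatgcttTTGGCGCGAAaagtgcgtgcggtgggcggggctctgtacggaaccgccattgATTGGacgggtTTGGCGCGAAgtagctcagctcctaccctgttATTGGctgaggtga
Mcm5: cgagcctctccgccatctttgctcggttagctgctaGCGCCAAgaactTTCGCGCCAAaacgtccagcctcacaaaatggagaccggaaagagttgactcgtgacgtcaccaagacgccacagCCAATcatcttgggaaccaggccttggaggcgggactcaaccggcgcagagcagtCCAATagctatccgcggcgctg
Rrm1: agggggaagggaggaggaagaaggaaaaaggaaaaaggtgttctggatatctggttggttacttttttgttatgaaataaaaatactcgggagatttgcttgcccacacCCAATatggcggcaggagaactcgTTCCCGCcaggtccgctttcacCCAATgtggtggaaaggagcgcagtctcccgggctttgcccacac
Mki67: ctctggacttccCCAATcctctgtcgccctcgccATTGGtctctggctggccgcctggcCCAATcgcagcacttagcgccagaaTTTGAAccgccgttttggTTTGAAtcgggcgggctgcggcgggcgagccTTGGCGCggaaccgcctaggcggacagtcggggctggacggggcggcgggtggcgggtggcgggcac
Ccnb2: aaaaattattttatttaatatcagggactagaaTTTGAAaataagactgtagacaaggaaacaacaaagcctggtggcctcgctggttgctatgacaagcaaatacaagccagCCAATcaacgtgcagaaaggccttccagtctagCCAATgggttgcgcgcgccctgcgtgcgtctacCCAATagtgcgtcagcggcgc
Top2a: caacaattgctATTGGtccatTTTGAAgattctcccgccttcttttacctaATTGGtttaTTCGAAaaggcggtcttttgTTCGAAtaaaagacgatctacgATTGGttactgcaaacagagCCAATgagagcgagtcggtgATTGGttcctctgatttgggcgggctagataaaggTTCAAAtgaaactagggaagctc

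The Mcm6 stretch holds 4 overlapping E2F matches in 2 clusters, the Mcm5 stretch holds 3 and the Rrm1 stretch 1, and each of these S stretches also holds 2 CCAAT words. The Top2a stretch holds 4 CHR and 5 CCAAT words, the Mki67 stretch 2 and 3 with 1 E2F word, and the Ccnb2 stretch 1 and 3. No E2F word was counted in the searched window of E2f1, which says only that these 4 spellings were not in it.

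Counts per tumor library totalled 31810461 to 54008259 reads over genes. Levels below are CPM, the usual measure of counts relative to library size, here scaled by the trimmed mean of M values. Tumors held RNA of other cells in widely different amounts, since 9 skeletal muscle markers summed to between 15.8 and 86545 CPM over the primary tumors that received 20 Gy with anti-PD-1. In this and the following counts a gene is called where its adjusted p was under 0.05 in edgeR's quasi-likelihood test with Benjamini-Hochberg adjustment over the 19327 genes. Another annotated gene overlaps 16 of the 40: Mcm7, Gins2, Cdt1, Rrm1, Ccne2, Ccna2, Plk1, Cdc20, Foxm1, Cenpf, Kif11, Kif20a, Tpx2, Nusap1, Mki67 and Top2a. Reads of partners on the other strand cannot be told apart, because it is not known whether strand was used in counting. Cdt1, Rrm1, Foxm1 and Tpx2 have partners on their own strand only, which counting by strand would not separate. Mcm7, Kif11, Nusap1 and Top2a have partners of both kinds.

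In tumors given isotype antibody without radiation, the 40 genes covered about the same range of levels in both models. Per kilobase of exon, Cdc20, the activator of the anaphase-promoting complex, was highest in untreated primary tumors with isotype (57.6 CPM per kb), next to Pcna, the sliding clamp of replication (54.3), and Ccnb2, cyclin B2 (43.7). Depdc1b and the kinetochore gene Cenpf were lowest, at 3.15 and 2.89 CPM per kb. In untreated transplants with isotype, Pcna (66.9) and Cdc20 (57.8) again led and Rrm2 came next at 51.1, whereas it was the 11th of 40 in primary tumors at 27.2. The SD over the 8 primary tumors was 31.1 CPM on a mean of 130.3 for Pcna and 32.5 CPM on a mean of 107.5 for Cdc20, so that these neighbours did not differ beyond their spread.

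Radiation lowered the cell cycle genes in primary tumors, and the G2/M genes by more than the S genes. Averaged over both antibodies, 36 of the 40 genes were called lower after 20 Gy, against 14.2% of all genes tested in this comparison, and none was called higher. All 23 G2/M genes were called, with a median log2 fold change of -0.86, and 13 of 17 S genes, with a median of -0.50, beside a median of 0.00 over all genes. The 4 S genes that were not called were Mcm3 (-0.28), Cdt1 (-0.28), Pcna (-0.25) and Ccne1 (-0.35). Of the 17 S genes, 13 changed less than every G2/M gene, and the ranges overlapped between -0.76 and -0.55, where 4 S genes (Rrm1, Uhrf1, Mcm5 and Rrm2) and 7 G2/M genes lay.

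Within each antibody the same direction was seen with fewer calls. With isotype, 25 genes were called lower (4 S and 21 G2/M), against 9.1% of all genes, and the medians were -0.48 for S genes and -0.94 for G2/M genes. With anti-PD-1, 21 genes were called lower (4 S and 17 G2/M), against 3.25% of all genes, and the medians were -0.47 and -0.85. Called in both were 20 genes, while Aurka, E2f1, Foxm1, Tpx2 and Top2a were called with isotype only, Mcm5 with anti-PD-1 only, and 14 in neither. Fits on the 2 groups of a comparison alone called 16 genes with isotype and 11 with anti-PD-1, and 12 were called with anti-PD-1 when either untreated tumor 6 or irradiated tumor 4 of that comparison was left out. Shares of all genes in these refits are not given here, so their counts cannot be read as particular to the 40 genes. The lists by antibody do not show that the antibody changed the response. The interaction of radiation with the antibody in primary tumors was called for 0 of the 40 genes (0% of all genes, and 0 by DESeq2 and limma voom). At an unadjusted p under 0.05 there were 0 of the 40, against 1168 of 19327 genes. The interaction ranged from -0.29 for Gins2 to 0.40 for Depdc1b.

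**Figure D1:**
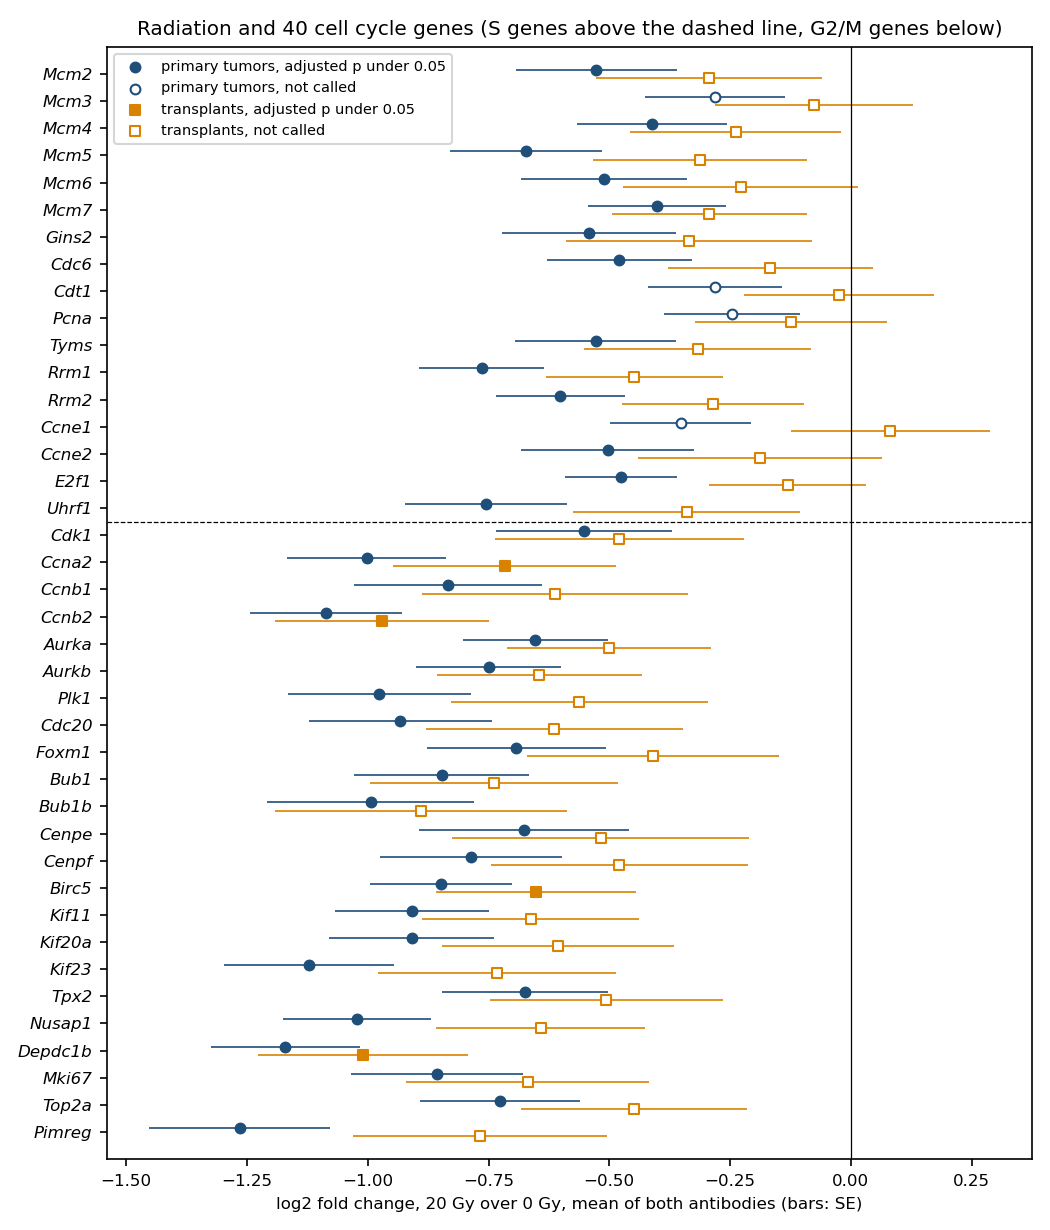
Log2 fold change of 20 Gy against 0 Gy, averaged over both antibodies, for the 40 genes in primary tumors and in transplants, with bars of 1 standard error and filled points for genes called at an adjusted p under 0.05. In primary tumors all 40 points lie below 0, from -0.25 for Pcna to -1.27 for Pimreg, and in transplants they run from 0.08 for Ccne1 to -1.01 for Depdc1b.

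Among the helicase and licensing genes, 7 of 9 were called lower in primary tumors, with a median log2 fold change of -0.48. Mcm5, a subunit of the ring-shaped MCM helicase that unwinds DNA at replication forks (ENSMUSG00000005410.6, chr8:75109569-75128439), changed most in this class. With isotype its lowest, median and highest levels were 75.6, 136.1 and 151 CPM at 0 Gy and 33.8, 78.4 and 131.9 CPM at 20 Gy. All 8 irradiated tumors lay below the untreated median, and 3 lay below every untreated tumor. With anti-PD-1 Mcm5 was at 86, 102.9 and 262 CPM without radiation and at 40.1, 67.8 and 111.9 CPM with it. Over both antibodies it fell by 0.67 on the log2 scale (SE 0.16, edgeR adjusted p = 0.00106). Mcm3, another helicase subunit, changed about as little as any gene of the class: its isotype medians were 118.3 and 90.8 CPM, the irradiated range of 42 to 169 CPM enclosed the untreated range of 76 to 148 CPM, and its log2 fold change was -0.28 (SE 0.14, edgeR adjusted p = 0.136).

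In the nucleotide supply class 3 of 4 genes were called lower in primary tumors, the clamp Pcna being the exception. Rrm1 encodes the large subunit of ribonucleotide reductase, which makes deoxynucleotides for replication (ENSMUSG00000030978.10, chr7:102441695-102469771). It was at 118.6, 185 and 200 CPM (lowest, median, highest) in untreated tumors with isotype and at 50.6, 101.3 and 174 CPM after 20 Gy, and 7 of 8 irradiated tumors lay below every untreated one. With anti-PD-1 it was at 124.2, 145 and 286 CPM against 60.3, 95 and 135.7 CPM. The log2 fold change was -0.76 (SE 0.13, edgeR adjusted p = 1.62e-05), the largest among the S genes in primary tumors, and its groups still met at their edges. Pcna was at 84.7, 133.6 and 177 CPM untreated and 92.7, 108.1 and 145 CPM irradiated with isotype. No irradiated tumor with isotype lay below the untreated range, while 3 of 8 with anti-PD-1 did. Over both antibodies the difference of -0.25 (SE 0.14, edgeR adjusted p = 0.185) did not pass the test.

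Of the regulators of S phase entry, Uhrf1, Ccne2 and E2f1 were called lower and Ccne1 was not. Uhrf1, which guides maintenance DNA methylation at replication forks, had isotype values of 75, 105.7 and 151 CPM untreated and 27.9, 75.5 and 109.5 CPM irradiated, and its log2 fold change over both antibodies was -0.76 (SE 0.17, edgeR adjusted p = 0.000601). E2f1, the transcription factor that activates many of the S genes, went from 41.8, 63.1 and 80.5 CPM to 33.6, 43.5 and 61.6 CPM with isotype. All 8 irradiated tumors with isotype lay below the untreated median of E2f1, and its change of -0.48 log2 units (SE 0.12, edgeR adjusted p = 0.00157) was near the S median. Ccne1, cyclin E1, ranged over 19.1 to 39.9 CPM untreated and 14.1 to 39.9 CPM irradiated with isotype, so that both groups reached the same highest level. With anti-PD-1 it ranged over 20.8 to 40.8 CPM without radiation and 7.59 to 35.0 CPM with it. There 5 of 8 irradiated tumors lay below every unirradiated one.

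All 9 cyclins, mitotic kinases and regulators were called lower in primary tumors, with a median log2 fold change of -0.83. Ccnb2, cyclin B2, which activates Cdk1 for entry into mitosis (ENSMUSG00000032218.7, chr9:70407692-70421547), was at 39, 69.2 and 98.5 CPM in untreated tumors with isotype and 20.7, 29.7 and 56.7 CPM after 20 Gy. With anti-PD-1 the values were 41.3, 56.4 and 93.6 CPM against 11.9, 23 and 48.8 CPM. In both settings all 8 irradiated tumors lay below the untreated median, and 7 of 8 and 6 of 8 lay below every untreated tumor, giving a change of -1.09 log2 units (SE 0.16, edgeR adjusted p = 9.9e-07). Cdk1, the kinase itself, changed least of the class: it was at 55.4, 103.6 and 179 CPM untreated and 49.3, 68.9 and 123.4 CPM irradiated with isotype. For Cdk1 1 of 8 irradiated tumors with isotype lay below every untreated one, and 6 of 8 with anti-PD-1. Its change of -0.55 log2 units (SE 0.18, edgeR adjusted p = 0.0187) overlapped those of the S genes. Between these ends lay Ccna2 (-1.0), Plk1 (-0.98), Cdc20 (-0.93), Ccnb1 (-0.83), Aurkb (-0.75), Foxm1 (-0.69) and Aurka (-0.65).

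The 5 kinetochore and spindle checkpoint genes were all called lower, with a median of -0.85. Bub1b, which encodes the checkpoint kinase BubR1, was at 57, 90.3 and 114.7 CPM untreated and 12.2, 34.7 and 111.8 CPM irradiated with isotype, and in each antibody group 7 of 8 irradiated tumors lay below every untreated tumor while 1 lay within the untreated range. Its log2 fold change was -0.99 (SE 0.21, edgeR adjusted p = 0.000439). Cenpe, a kinetochore motor, changed least of the class, from 28.9, 48.3 and 93 CPM to 9.92, 30.4 and 72.2 CPM with isotype (-0.68, SE 0.22, edgeR adjusted p = 0.0156). Birc5, the survivin subunit of the chromosomal passenger complex, fell by 0.85, Bub1 by 0.85 and Cenpf by 0.79 on the log2 scale.

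The spindle, motor and cytokinesis class had the largest median of the 7 classes in primary tumors, -0.97, with 6 of 6 called. Depdc1b, a gene expressed in mitosis (ENSMUSG00000021697.12, chr13:108316332-108407782), was at 7.48, 9.59 and 14.1 CPM in untreated tumors with isotype and at 1.59, 4.38 and 5.37 CPM after 20 Gy. With anti-PD-1 it was at 6.96, 8.89 and 23.3 CPM against 3.3, 5.25 and 9.46 CPM. The isotype groups did not overlap, 1 of 8 irradiated tumors with anti-PD-1 reached the untreated range, and the log2 fold change was -1.17 (SE 0.15, edgeR adjusted p = 1.91e-07). Tpx2, which targets Aurora A to the spindle, changed least, with isotype medians of 106.7 and 63.1 CPM and a change of -0.67 log2 units (SE 0.17, edgeR adjusted p = 0.00244). The motors Kif23 (-1.12), Kif11 (-0.91) and Kif20a (-0.91) and the spindle protein Nusap1 (-1.02) lay between them.

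Pimreg, an interactor of the PICALM endocytic protein (ENSMUSG00000020808.3, chr11:72042032-72047370), had the largest change of the 40 in primary tumors. It was at 34.8, 51.4 and 100.3 CPM untreated and 13.8, 24.2 and 30.6 CPM irradiated with isotype, and at 36.9, 47.4 and 92.9 CPM against 5.73, 18.5 and 43.1 CPM with anti-PD-1. The isotype groups did not overlap, and the log2 fold change was -1.27 (SE 0.19, edgeR adjusted p = 1.57e-06). With isotype, Pimreg and Depdc1b were the only 2 of the 40 genes with every irradiated primary tumor below every untreated one, a pattern held by 0.409% of all genes tested. Mki67, the antigen Ki-67 that coats mitotic chromosomes and serves as the usual marker of cycling cells (ENSMUSG00000031004.8, chr7:135689784-135716361), was at 76.4, 166 and 247 CPM untreated and 45.8, 100.3 and 121.5 CPM irradiated with isotype. With isotype its groups overlapped widely and 2 of 8 irradiated tumors lay below the untreated range, against 4 of 8 with anti-PD-1. Its log2 fold change over both antibodies was -0.86 (SE 0.18, edgeR adjusted p = 0.000283). Top2a, the topoisomerase that untangles sister chromatids, changed least of these 3, with isotype medians of 260.5 and 137.02 CPM and a change of -0.73 log2 units (SE 0.17, edgeR adjusted p = 0.000855).

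**Figure D2:**
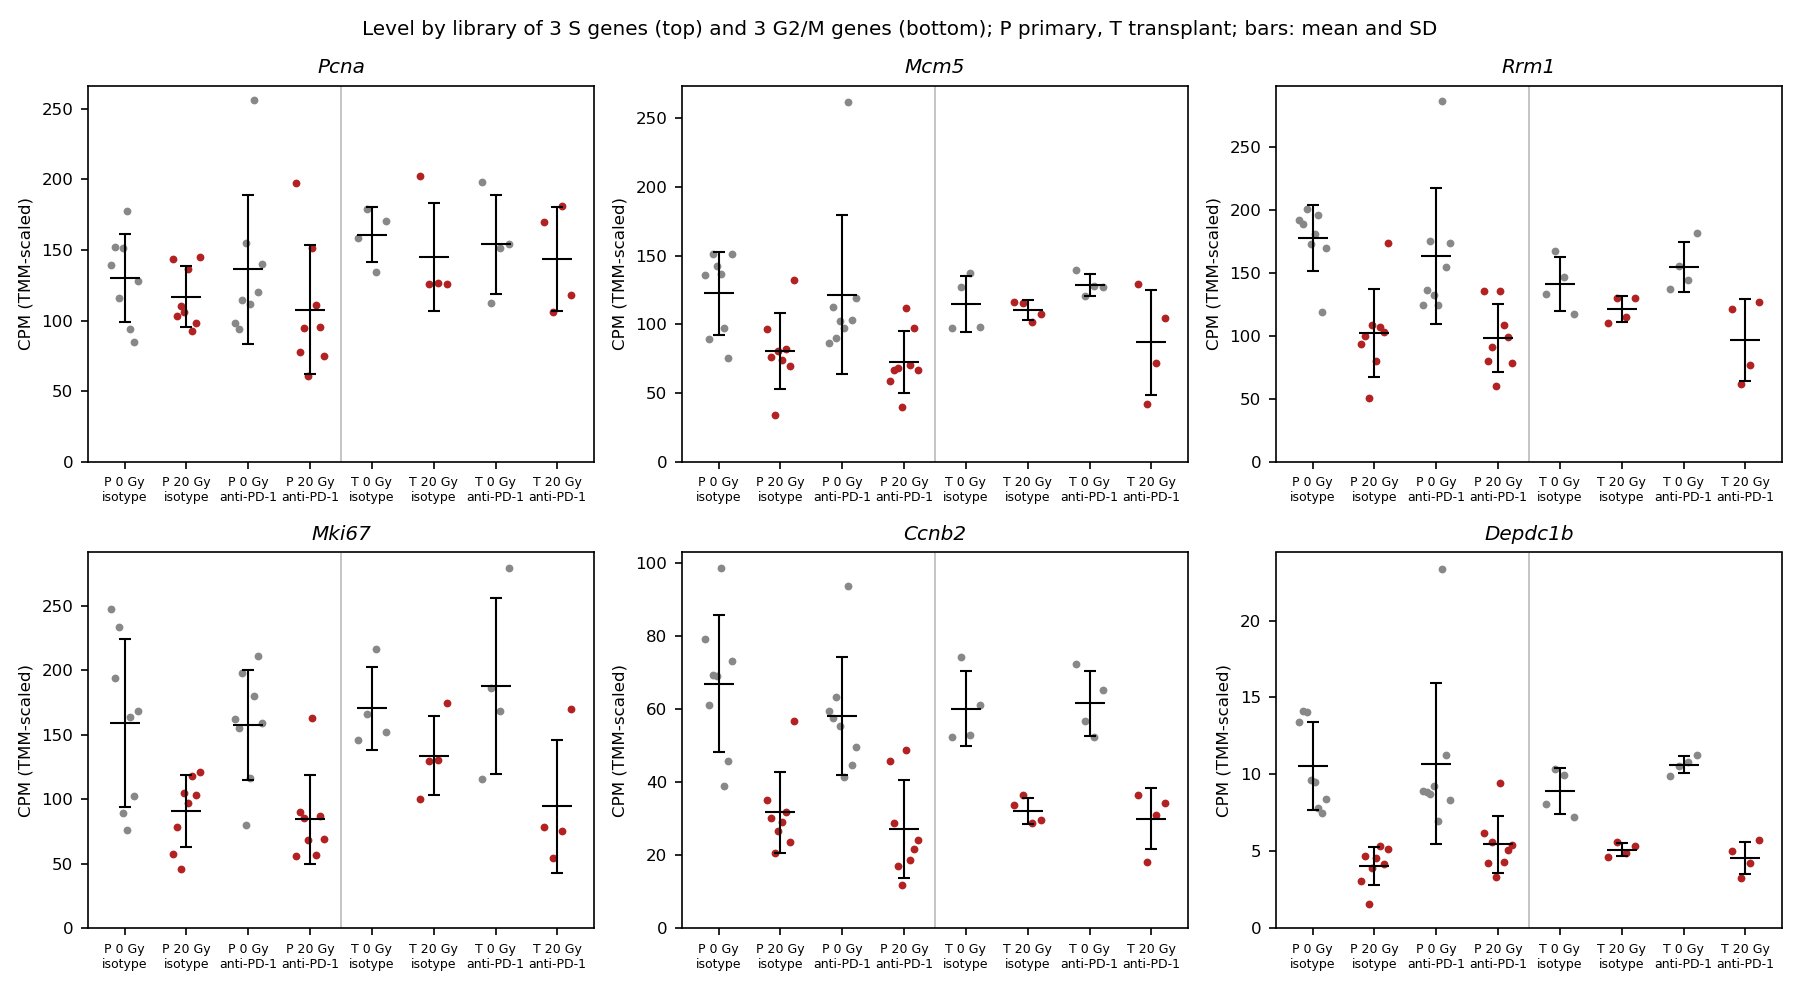
Level in CPM of Pcna, Mcm5, Rrm1, Mki67, Ccnb2 and Depdc1b in each of the 48 tumors by group, with the group mean and SD. The irradiated and untreated points overlap for Pcna, and they separate completely for Depdc1b in primary tumors with isotype and for Ccnb2 and Depdc1b in transplants.

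Markers of other cells moved with radiation in the same libraries. In primary tumors, averaged over antibodies, 6 of 8 macrophage markers were called higher (median log2 fold change 0.65), 5 of 6 neutrophil markers (2.23) and 8 of 9 skeletal muscle markers (2.40), against 16.8% of all genes called higher, while 2 of 8 mesenchymal markers were called lower. T cell (0 of 8), endothelial (0 of 6) and red blood cell markers (0 of 5) were not called by edgeR's test, and 1 of 6 B and plasma cell markers was called higher. None in the T cell, endothelial and red blood cell lists had an unadjusted p under 0.05, against 7968 of 19327 genes. By antibody these lists moved in opposite directions. Their mean log2 level changed with isotype and with anti-PD-1 by 0.60 and -0.73 for T cells and by -0.33 and 0.14 for endothelium. For red blood cells the changes were -0.16 and 0.59, and for B and plasma cells 0.69 and -0.54. No test by antibody is given for them here. A few irradiated tumors had very high muscle levels: the median summed muscle level was 1890 CPM untreated and 1501 CPM irradiated with isotype, with highest values of 6433 and 49407 CPM. The median summed neutrophil level was 237 CPM untreated and 225 CPM irradiated with isotype, and 259 and 703 CPM with anti-PD-1. The mean log2 level of the neutrophil markers rose with both, by 1.35 and 2.48. The summed macrophage markers ran from 1555 to 2943 CPM untreated and from 1857 to 3702 CPM irradiated with isotype, and no macrophage marker was at 0 in every library of a group. With the mean log2 level of the macrophage markers as a covariate, an alternative added after the data were seen, 25 of the 40 genes were called lower over both antibodies, with medians of -0.32 for S and -0.67 for G2/M genes, and 12 were called in each antibody alone. With the skeletal muscle markers as a covariate 36 genes were called, with medians of -0.47 and -0.85. The shares of all genes called with these covariates are not given here, so the counts cannot be read as particular to the 40.

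In transplants the direction was the same, with smaller changes and fewer calls. Averaged over both antibodies, 39 of 40 genes had negative log2 fold changes and 4 were called lower, against 1.38% of all genes. An unadjusted p under 0.05 was found for 19 of the 40, of which 18 were G2/M genes, against 3768 of 19327 genes. The medians were -0.24 for S and -0.64 for G2/M genes, beside -0.02 over all genes, and 16 of 17 S genes changed less than every G2/M gene. The called genes were Ccna2, Ccnb2, Birc5 and Depdc1b, and leaving out 1 transplant at a time gave 2 to 9 calls, the 9 without the irradiated anti-PD-1 transplant 4. In transplants 4 of 8 macrophage markers were called higher, against 5.85% of all genes, with a median of 0.82, and their sum went from 1445 to 2158 CPM untreated to 2558 to 3968 CPM irradiated with isotype. With these markers as a covariate none of the 40 was called, the S median was 0.01 and the G2/M median -0.28, and their part in the result was not tested further. The share of all genes called in that fit is not given here.

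Ccnb2 was at 52.4, 52.8, 61.1 and 74.2 CPM in the 4 untreated transplants with isotype and at 28.7, 29.6, 33.9 and 36.5 CPM in the 4 irradiated ones. With anti-PD-1 it was at 52.4, 56.7, 65.3 and 72.2 CPM against 18.1, 31.1, 34.3 and 36.6 CPM. Every irradiated transplant lay below every untreated one, with a change of -0.97 log2 units (SE 0.22, edgeR adjusted p = 0.00283). Depdc1b separated completely as well, at 7.22, 8.06, 9.97 and 10.4 CPM against 4.65, 4.88, 5.34 and 5.58 CPM with isotype, and at 9.92, 10.5, 10.8 and 11.3 CPM against 3.29, 4.24, 5.04 and 5.72 CPM with anti-PD-1 (-1.01, SE 0.22, edgeR adjusted p = 0.00165). Ccna2, the cyclin of S phase and early mitosis, went from 100.8, 112.4, 119.9 and 141.3 CPM to 79.5, 80.2, 87.9 and 92.4 CPM with isotype and from 105.8, 119.8, 128.6 and 159 CPM to 37.9, 54.7, 79.9 and 92.6 CPM with anti-PD-1 (-0.72, SE 0.23, edgeR adjusted p = 0.0479). Over both antibodies 7 of the 40 genes, Ccna2, Ccnb1, Ccnb2, Aurkb, Bub1, Nusap1 and Depdc1b, had every irradiated transplant below every untreated one, against 0.916% of all genes. All 7 are G2/M genes.

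Split by antibody, few of these genes passed the test in transplants. With isotype none of the 40 genes was called (0.103% of all genes, 0 by DESeq2 and 0 by limma voom), with a median of -0.01 for S and -0.44 for G2/M genes. The unadjusted p was under 0.05 for 3 of the 40, against 2335 of 19327 genes. A fit on the 2 isotype groups alone called 3, Bub1, Ccnb2 and Depdc1b, and its share of all genes is not given here. Mcm5 was at 97.2, 97.8, 126.99 and 137.4 CPM untreated and 101.6, 107.8, 115.7 and 116.2 CPM irradiated with isotype, so that the irradiated transplants lay inside the untreated range. With anti-PD-1 only Depdc1b was called lower (0.0569% of all genes), and this call was lost with library totals, without the filter on low counts, in a fit on the 2 groups alone, with the macrophage or mesenchymal covariate, and without any 1 of the 8 transplants other than irradiated transplant 4. With anti-PD-1 20 of the 40 had an unadjusted p under 0.05, against 2540 of 19327 genes, and the medians were -0.45 and -0.84. Mcm5 was then at 120.4, 126.8, 127.9 and 139.8 CPM untreated and 42.2, 71.7, 104.3 and 129.7 CPM irradiated. Pcna was between 125.7 and 126.3 CPM in 3 irradiated transplants with isotype, at 202 CPM in the other, and at 105.9, 118.1, 170 and 181 CPM with anti-PD-1, against 134.2 to 179 CPM and 112.7 to 198 CPM untreated. E2f1 was at 41.6, 52.6, 53.1 and 55.7 CPM in irradiated transplants with isotype against 45 to 52.7 CPM untreated, and its groups overlapped in both antibody settings.

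One irradiated transplant with anti-PD-1 was low for most of these genes. It had a mean log2 level of 4.95 over the S genes and 4.26 over the G2/M genes, where the other 3 of its group had 5.69 to 6.20 and 4.95 to 5.66. The same transplant had the lowest mean log2 level of the mesenchymal markers in that group (8.34, highest 9.84). Its macrophage markers had the highest mean there (8.80, lowest 7.93). Mki67 spread over 54.4, 75.7, 78.2 and 170.1 CPM in that group against 115.9, 169, 186 and 279.6 CPM in untreated transplants with anti-PD-1, and over 100.6, 129.6, 130.4 and 175 CPM against 146, 153, 166 and 217 CPM with isotype. The interaction of radiation with the antibody in transplants was called for 0 of the 40 (0% of all genes, and 0 by DESeq2 and limma voom). It had an unadjusted p under 0.05 for 0 of the 40, against 251 of 19327 genes, with log2 values from -0.75 for Bub1b to 0.15 for Ccne2. The mean log2 level of the mesenchymal markers changed after 20 Gy by -0.67 with anti-PD-1 and by 0.03 with isotype. That of the macrophage markers changed by 0.77 and 0.67. The part of these in the levels of the 40 genes by antibody was not tested.

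The smaller changes in transplants were not shown to differ from those in primary tumors. The interaction of radiation with the tumor model was called for 0 of the 40 genes, against 0.0259% of all genes (0 called by DESeq2 and limma voom). Its unadjusted p was under 0.05 for 0 of the 40, against 1652 of 19327 genes. All 40 interaction values were positive, from 0.07 for Cdk1 to 0.50 for Pimreg, with standard errors of 0.20 to 0.38 and a lowest edgeR adjusted p of 0.653. A standard error of that size cannot separate the smaller of these differences from 0.

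The difference between the groups of genes was also read within each tumor, as the mean log2 CPM of the 17 S genes minus that of the 23 G2/M genes. In primary tumors with isotype it was 0.14 ± 0.12 (SD, n = 8) untreated and 0.61 ± 0.23 irradiated, and 7 of 8 irradiated tumors lay above every untreated one. With anti-PD-1 it was 0.17 ± 0.17 and 0.54 ± 0.28, with 5 of 8 above. In transplants it was 0.18 ± 0.06 (SD, n = 4) and 0.58 ± 0.16 with isotype and 0.18 ± 0.18 and 0.64 ± 0.18 with anti-PD-1, with 4 of 4 irradiated transplants above every untreated one in both. No test is given for this score, because the genes were chosen as a list, and the differences of 0.47, 0.37, 0.40 and 0.46 are descriptions. With medians over genes in place of means they were 0.43, 0.19, 0.53 and 0.23, and 3 of 8 irradiated primary tumors and 2 of 4 irradiated transplants with anti-PD-1 then lay above every untreated one. The mean of the S genes in transplants with isotype was 6.14 ± 0.10 untreated and 6.11 ± 0.13 irradiated, while that of the G2/M genes was 5.96 ± 0.16 and 5.54 ± 0.12.

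**Figure D3:**
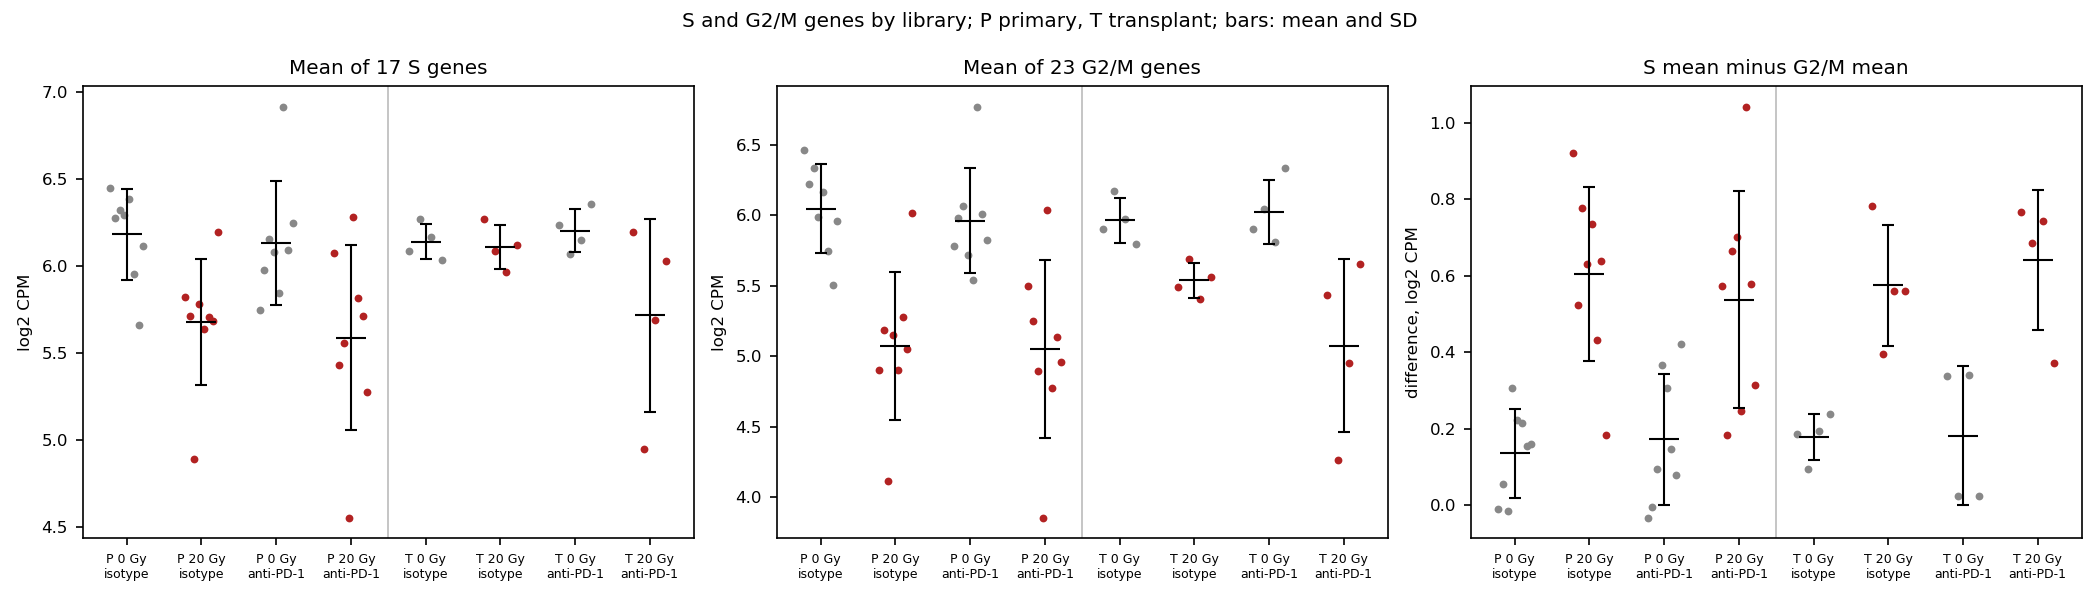
Mean log2 CPM of the 17 S genes, of the 23 G2/M genes, and their difference in each tumor by group, with group means and SD. The difference is between 0.14 and 0.18 on average in the 4 untreated groups and between 0.54 and 0.64 on average in the 4 irradiated groups.

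No effect of anti-PD-1 on these genes, with or without radiation, passed the test. In primary tumors at 0 Gy none of the 40 was called (0% of all genes), with log2 values from -0.23 for Pimreg to 0.15 for Cdt1, and at 20 Gy none was called (0% of all genes), with values from -0.40 for Gins2 to 0.42 for Depdc1b. In transplants at 0 Gy none was called (0% of all genes), with values from -0.21 for Ccne2 to 0.26 for Depdc1b. In irradiated transplants all 40 values were negative, from -0.01 for Pcna to -0.64 for Foxm1, and none was called (0% of all genes). In all 4 comparisons 0 of the 40 had an unadjusted p under 0.05 in edgeR's test, and DESeq2 and limma voom called 0.

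Between the models only Rrm2 separated. Rrm2 encodes the small subunit of ribonucleotide reductase, whose abundance sets the enzyme's activity in S phase (ENSMUSG00000020649.11, chr12:24708241-24714146). In untreated transplants with isotype it was at 125.3, 133.3, 135.4 and 173 CPM, against 48.8, 76.9 and 102.99 CPM (lowest, median, highest) in primary tumors, and it was 1 of 40 genes called higher, against 3.88% of all genes (log2 fold change 0.91, edgeR adjusted p = 0.00611). With anti-PD-1 it was at 119.8, 140.9, 173 and 173 CPM against 54.9, 70 and 99.9 CPM, again the only 1 of the 40 called (3.39% of all genes, log2 fold change 1.06, edgeR adjusted p = 0.00185). After 20 Gy it was at 123.1, 132.1, 136.8 and 150 CPM with isotype against 32.4, 51.3 and 56.9 CPM (1 of 40 called, 2.47% of all genes, log2 fold change 1.48, edgeR adjusted p = 4.54e-05), and at 52.8, 106.2, 127.96 and 139.6 CPM with anti-PD-1 against 29.2, 48.1 and 72 CPM (1 of 40 called, 3.04% of all genes, log2 fold change 1.13, edgeR adjusted p = 0.00315). The last of these calls was lost in a fit on the 2 groups alone. Every transplant exceeded every primary tumor in the first 3 of these comparisons and 3 of 4 did in the last. No other member was called in either direction, including Rrm1, its partner subunit, so 1 of 40 members called higher was a share of the order of the background. All transplants come from 1 line, so a property of the model and of that line cannot be told apart.

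The libraries labelled as the parental primary tumor and as the cell line 402230 went against their labels in the markers of host cells. The library labelled as the parental tumor had 7 of 8 T cell markers at 0 and summed levels of 15.5 CPM for macrophage, 0.636 CPM for endothelial, 4.64 CPM for skeletal muscle and 0.0909 CPM for red blood cell markers, where untreated primary tumors had 1513 to 2883, 227 to 579, 67.7 to 6571 and 35.2 to 169 CPM. The library labelled as the cell line had 1067, 361, 253 and 187 CPM for the same lists and no marker at 0. Levels in this paragraph and the next are scaled over all 50 libraries, and their 95% exact Poisson intervals cover counting error only. With 1 library of each there is no test, and both are named here by their labels. Whether the labels of these 2 libraries were exchanged was not tested, so no direction between tumor and line is drawn from them.

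The cell cycle genes were high in the library labelled as the parental tumor. Against the untreated primary tumors, 35 of the 40 genes (13 S and 22 G2/M) lay above every tumor there, and Gins2, Cdt1, Ccne1, E2f1 and Ccnb2 lay within the range. The share of all genes outside such ranges was not computed, so the counts in this paragraph cannot be read as particular to these genes. Its level divided by the mean of the untreated primary tumors had a median of 2.16 over S genes and 3.27 over G2/M genes. Mki67 was at 621 CPM (interval 614 to 629), Top2a at 1217 CPM (1207 to 1228) and Rrm2 at 386 CPM (380.0 to 391.6). In the library labelled as the cell line these genes were at 103.6 CPM (100.7 to 106.6), 226 CPM (221 to 230.0) and 74.9 CPM (72.4 to 77.4), and 31 of the 40 genes lay below every untreated transplant with the other 9 inside the range. Set against the other model, the library labelled as the parental tumor lay above every untreated transplant for 39 of the 40 genes, and the library labelled as the cell line lay below every untreated primary tumor for 26 and within their range for 14. The level in the library labelled as the cell line was a median of 0.219 of that in the other library, 0.281 over S genes and 0.195 over G2/M genes, from 0.136 for Kif23 to 0.514 for Gins2, which read the other way is a median of 4.57 times higher in the library labelled as the parental tumor.

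**Figure D4:**
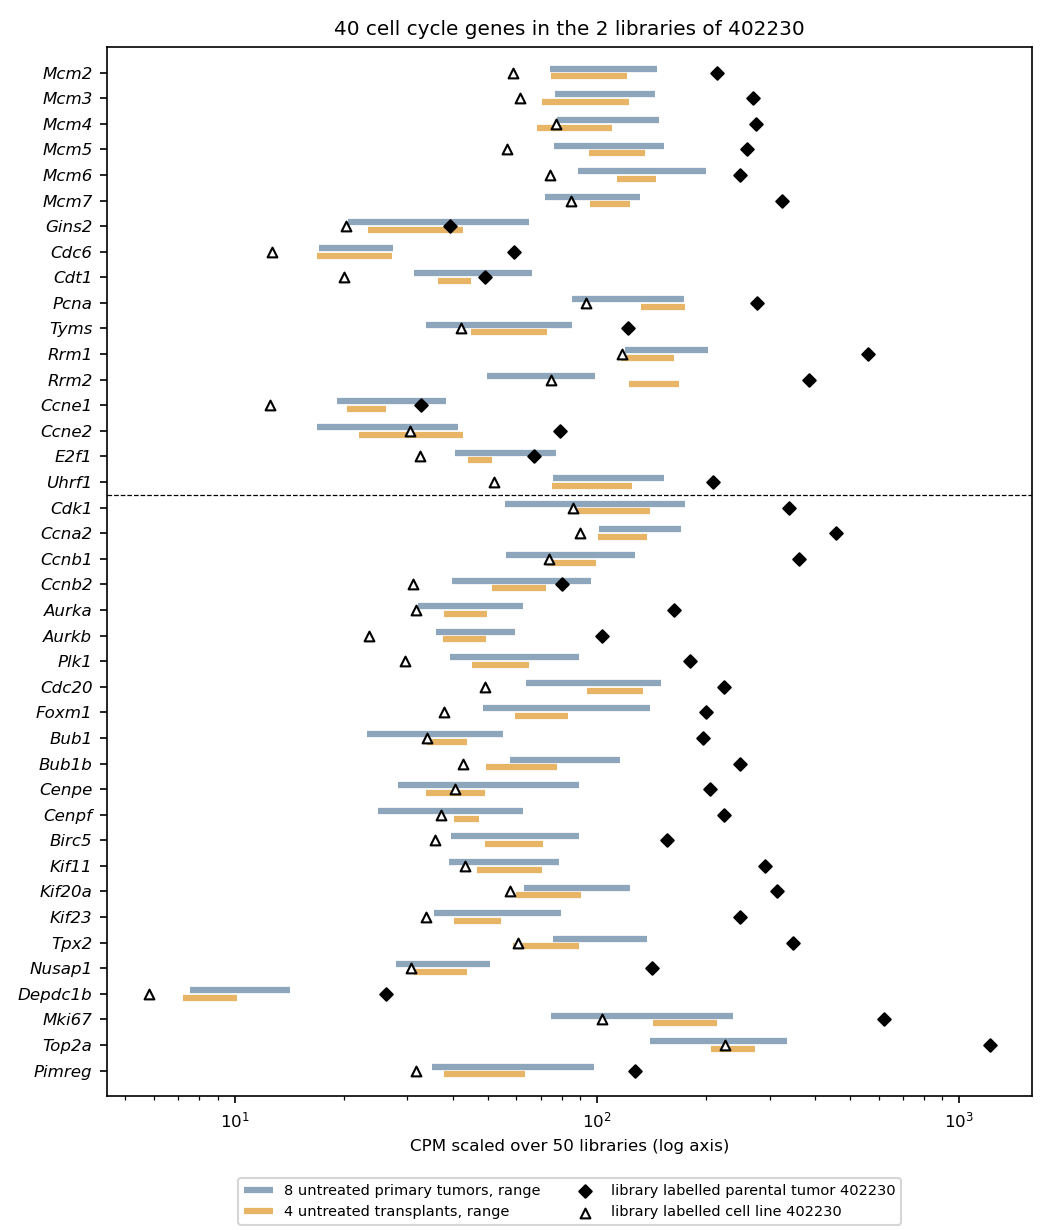
Level in CPM, on a log axis, of each of the 40 genes in the libraries labelled as the parental tumor and as the cell line 402230, with the lowest to highest range of untreated primary tumors and untreated transplants. The library labelled as the parental tumor lies above the primary range for 35 genes, and the library labelled as the cell line lies below the transplant range for 31.

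Tumors also differed in these genes within a treatment, and 24 of the other 39 genes varied together with Mki67. After the mean of each of the 8 groups was subtracted, Pearson's r between log2 CPM of Mki67 and of the other 39 genes over the 48 tumors was positive with an adjusted permutation p under 0.05 for 24 genes (10 of 17 S and 14 of 22 G2/M), against 14.4% of all genes, from 100000 permutations within groups with Benjamini-Hochberg adjustment over 19326 genes. The median of r was 0.48 over the 39 genes and -0.01 over all genes. The largest were Cenpf (r = 0.88, Spearman's rho = 0.90), Cenpe (0.83 and 0.84) and Foxm1 (0.73 and 0.67), each with a permutation p of 1e-05 for r, the smallest that the permutations can give. Among S genes Uhrf1 was highest (0.67 and 0.68). Genes with longer exons had higher r (Spearman's rho 0.53 with exon length over the 39 genes), and the source of this was not tested. For several genes used as cycling markers the relation with Mki67 did not pass the test, as r was 0.04 for Cdk1 (permutation p = 0.815), -0.01 for Birc5 (permutation p = 0.951), 0.10 for Pimreg (permutation p = 0.547), -0.12 for Pcna (permutation p = 0.458) and -0.23 for Gins2 (permutation p = 0.169).

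The medians of r were 0.46 over S genes and 0.58 over G2/M genes, and they were 0.39 and 0.53 without the 2 tumors farthest from the median of Mki67. Within the 32 primary tumors alone they were 0.42 and 0.54, and within the 16 transplants 0.59 and 0.70. Tumors with more Mki67 had less of the macrophage markers (r = -0.47 over the 48 tumors) of the red blood cell markers (-0.39) and of the neutrophil markers (-0.36), and more of the mesenchymal markers (0.35), and the part of these in the relation was not tested. With library totals in place of the scaled totals 26 genes passed, against 17.6% of all genes. After the skeletal muscle markers were regressed out 26 passed, against 15.8% of all genes.

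**Figure D5:**
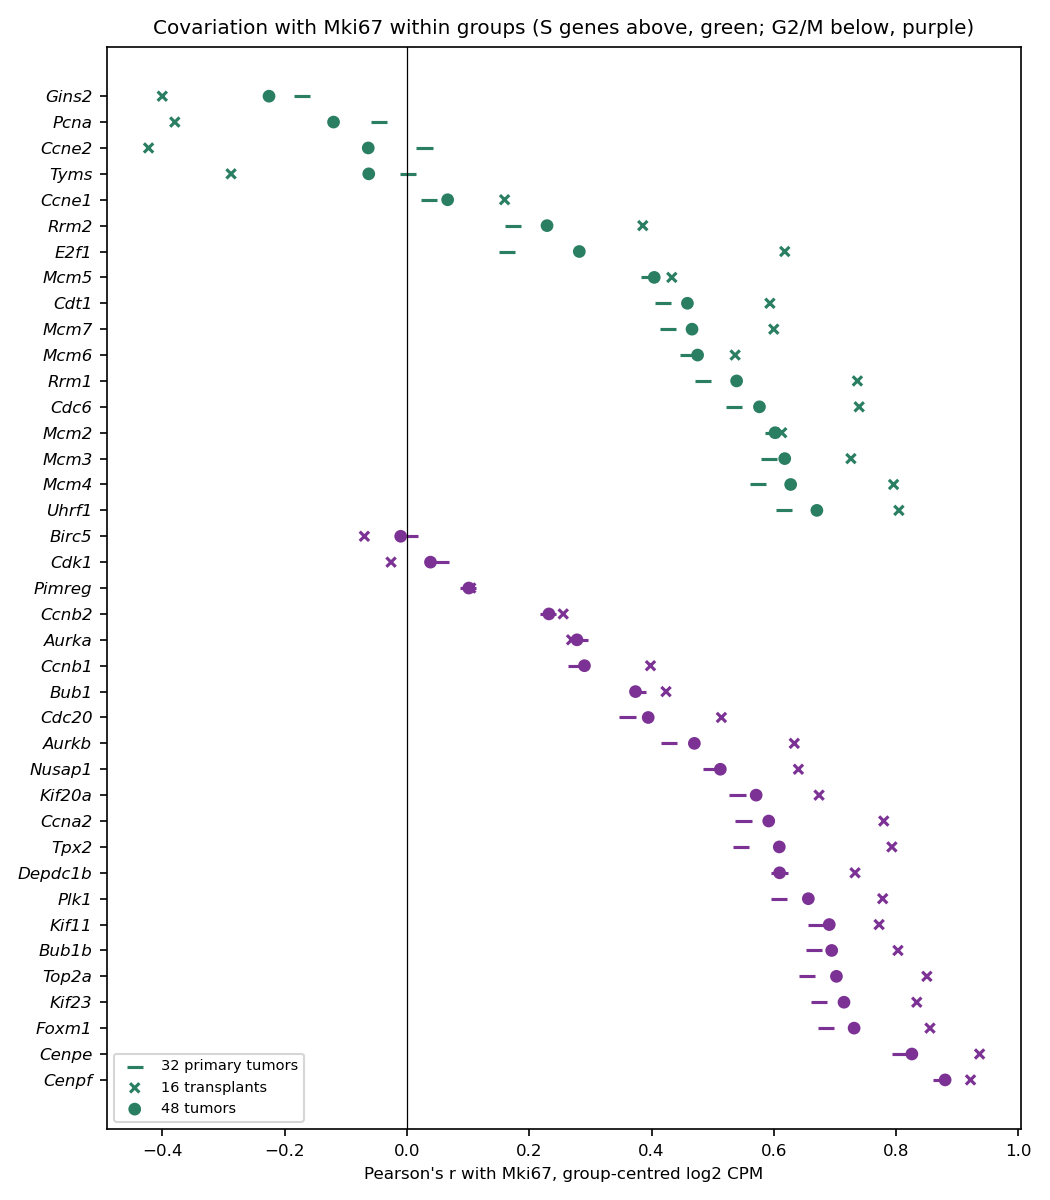
Pearson's r with Mki67 for each of the other 39 genes after group means were subtracted, over all 48 tumors (dots), the 32 primary tumors (dashes) and the 16 transplants (crosses). Cenpf and Cenpe lie highest, and Gins2, Pcna, Ccne2, Tyms and Birc5 lie at or below 0 over the 48 tumors.

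Other cell cycle genes were read from 6 lists grouped by role. The shares of all genes to set beside their counts are 14.2% called lower and 16.8% called higher in primary tumors, and 1.38% called lower in transplants. Of 52 further G2/M genes, 51 were called lower after radiation in primary tumors (median log2 fold change -0.72), led by the kinetochore gene Nuf2 (-1.02), the spindle gene Ckap2l (-1.01) and the motor Kif15 (-0.94), and 10 were called lower in transplants, with a median of -0.52. Of 26 further S genes, 17 were called lower in primary tumors (median -0.44), among them thymidine kinase Tk1 (-1.01), the polymerase subunit Pola1 (-0.65) and Fbxo5 (-0.58). In transplants edgeR's test called 0 of these 26 lower, and 1 had an unadjusted p under 0.05, against 3768 of 19327 genes. Of 8 G1 cyclins and kinases, Ccnd1 (-0.63), Cdk4 (-0.42) and Cdk2 (-0.39) were called lower in primary tumors.

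Inhibitors of the cycle did not move together. Cdkn1a, which encodes p21, rose in both models, with lowest, median and highest levels of 28, 44.6 and 85.6 CPM untreated and 176, 209 and 276 CPM irradiated in primary tumors with isotype (log2 fold change over both antibodies 2.33, edgeR adjusted p = 1.25e-13), and a log2 fold change of 1.75 in transplants (edgeR adjusted p = 3.89e-06). Whole tumor RNA does not separate the tumor cells, deleted for Trp53, from host cells. Of the 12 inhibitors 3 were called higher and 7 lower in primary tumors, including Ccng1 (1.21), Cdkn1b (-0.36) and Cdkn2a (-0.72). Of 17 E2F, RB and DREAM factors, 5 were called lower in primary tumors, among them E2f7 (-0.72), Tfdp1 (-0.50) and E2f4 (-0.40), and 1 higher. Of 6 G2 checkpoint genes, the kinase genes Chek1 (-0.47) and Chek2 (-0.37) and the checkpoint adaptor Topbp1 (-0.37) were called lower.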

How the data were processed

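RNA of 48 mouse sarcomas and 2 libraries of line 402230 was sequenced from poly(A) RNA with a stranded kit. The authors used Trimmomatic 0.36 for trimming, STAR for alignment to mm10 (GRCm38) and HTSeq for counting per gene, and the deposited table holds raw whole-number read counts per gene and library, not normalized. The version of STAR is written as 5.5.4b per the labels, which differs from the version in the authors' methods. The strand setting of the counting is not given in the sources used here. The labels carry no replicate numbers, so tumors are numbered in record order within a group, which pairs nothing.

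Of 37469 identifiers, 37408 were matched to symbols in GENCODE (GRCm38), 35419 of them with the same version, and coordinates and exon lengths come from that annotation. Every library named in the table was used. Counts were filtered with filterByExpr, scaled by TMM and fitted in edgeR 4.0.16 (R 4.3.3) with 1 mean per group over the 48 tumors, with quasi-likelihood tests of 17 comparisons, two-sided, and Benjamini-Hochberg adjustment over 19327 genes. The 402230 libraries stayed out of the fit and have no replicate. Per-library log2 CPM used a prior count of 2. The code was tested on simulated counts with known changes. Alternatives were DESeq2 1.42.0, limma voom 3.58.1, other scalings and filters, marker covariates, fits on the compared groups alone, and leaving out 1 library at a time. Each transplant was left out of every comparison that uses it. Each primary tumor was left out only for radiation in primary tumors, within each antibody and averaged. The macrophage and mesenchymal covariates, the left-out primary tumors and the adjustment over all genes of the relation with Mki67 were added after the data were seen.

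The 40 genes, the role classes, the other cell cycle lists and the marker lists were chosen with earlier results of these data known. Levels per tumor are given for the genes with the largest and the smallest change in each of 7 role classes in irradiated primary tumors, averaged over antibodies, and for Mki67 and E2f1. Rrm2, Ccna2 and Birc5 were added after their values were seen. In the other lists up to 3 genes with the smallest p are named, with Cdkn1a, Ccnd1 and Cdkn2a. Totals ran from 31810461 to 54008259 counts per tumor and were 48457411 and 41226531 in the libraries labelled as the parental tumor and the cell line. No pair of replicate libraries agreed within counting noise (chi-square over degrees of freedom at least 93.6 in all pairs).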

Additional observations from a re-analysis of the deposited data

Results flagged for a closer look

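Tumors far from the others of their group were looked for in 19 measures by group with Dixon's test, which by chance marks about 1 group in 20, and 15 of 152 were marked. The measures share tumors and genes, so the marks are not independent and their count cannot be read against that rate. Primary tumor 6 at 0 Gy with anti-PD-1 stood highest, with a mean log2 CPM of 6.92 over the S genes (others 5.75 to 6.25) and 6.77 over the G2/M genes (others 5.54 to 6.06), and with 8.03 for Mcm5, 8.16 for Rrm1 and 4.55 for Depdc1b. Primary tumor 3 at 20 Gy with isotype stood lowest, at 4.89 over the S genes (others 5.64 to 6.20), 5.08 for Mcm5, 0.71 for Depdc1b and 3.79 for Pimreg. Primary tumor 7 at 0 Gy with isotype was lowest for Rrm1 (6.89) and Top2a (7.12). Primary tumor 5 at 20 Gy with anti-PD-1 was highest for Mki67 (7.35, others 5.81 to 6.49). Among transplants, tumor 1 at 20 Gy with isotype was highest for Pcna (7.66, others 6.97 to 6.98) and Cdk1 (6.83), and tumor 1 at 0 Gy with isotype for E2f1 (5.72).

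In data outside the comparisons of tumors, 35 of the 40 genes in the library labelled as the parental 402230 tumor lay above every untreated primary tumor. The share of all genes that did so was not computed.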

How the results depend on the processing

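No gene called in a comparison changed sign under any alternative. Of 34 medians over the S or G2/M genes, 2 for each of 17 comparisons, 12 changed sign under at least 1 alternative. The S median for radiation in transplants over both antibodies went from -0.24 to 0.01 with the macrophage covariate, and with isotype from -0.01 to 0.30 with that covariate. The other medians that changed sign were between -0.11 and 0.12 and belonged to the radiation by antibody interaction in primary tumors, to anti-PD-1 or to the comparison of the models. Shares of all genes called under the alternatives are not given here, so a moved count cannot be read as particular to the 40 genes. The count of the 40 genes called moved by more than 1.5 times as follows. In primary tumors with isotype it went from 25 to 16 with only the compared groups in the fit and to 12 with the macrophage covariate, and with anti-PD-1 from 21 to 11 and 12. In transplants with isotype it went from 0 to 3 with only the compared groups. In transplants with anti-PD-1 it went from 1 to 0 with library totals, without a filter on low counts, with only the compared groups and with the macrophage or mesenchymal covariate, and to 2 with the muscle covariate and DESeq2. In transplants over both antibodies it went from 4 to 2 without a filter, 11 with the muscle covariate, limma voom or DESeq2, 13 with only the compared groups and 0 with the macrophage covariate. Between the models it went from 1 to 0 at 0 Gy with isotype when the library labelled as the parental tumor, which lacks host cell markers, joined the primary tumors, and at 20 Gy with anti-PD-1 to 2 with the muscle covariate and 0 with only the compared groups. Leaving out 1 library at a time gave 18 to 31 calls in primary tumors with isotype, 12 to 29 with anti-PD-1 and 33 to 38 over both, and in transplants 0, 0 to 2 and 2 to 9. The 12 came without primary tumor 6 at 0 Gy or 4 at 20 Gy with anti-PD-1. In transplants with anti-PD-1 the count was 2 without tumor 4 at 20 Gy and 0 without any other. Over both antibodies it was 9 without that tumor, and 2 without isotype tumors 1, 2 and 4 at 0 Gy or 2, 3 and 4 at 20 Gy, or anti-PD-1 tumors 4 at 0 Gy or 2 and 3 at 20 Gy. The difference between S and G2/M means in transplants with isotype was 0.40, 0.53 with medians over genes, 0.24 with the other S and G2/M lists, and 0.33 to 0.46 without 1 library, and with anti-PD-1 it was 0.46, 0.23 with medians and 0.41 to 0.55 without 1 library. The causes were not tested.

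For single genes, 2646 values kept their direction and their side of the threshold and 266 kept the direction but no longer passed. No paired analysis was possible because the labels carry no replicate numbers that the groups share. With 4 transplants in a group, standard errors of 0.23 to 0.44 for a change within 1 antibody limit what could be seen there.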

Other observations

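Across the other 39 genes, r with Mki67 was higher for genes with longer exons. Pearson's r with log2 exon length was 0.48 and Spearman's rho 0.53, and both were 0.61 and 0.65 within the G2/M genes and 0.37 and 0.43 within the S genes. The 13 genes with the lowest r had a median exon length of 3154 bases and the 13 with the highest 4677 bases. These are relations across genes, which share the 48 libraries and are not independent, so no p is given. The change after radiation in primary tumors showed no such relation over all 40 genes (-0.00 and -0.02), while within the S genes it was -0.57 and within the G2/M genes 0.34 (Pearson).

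In transplants, the 10 further G2/M genes called lower after 20 Gy were Cenpa (-0.94), Cdca3 (-0.94), Cdc25c (-0.86), Racgap1 (-0.80), Ncapd2 (-0.79), Cenpm (-0.77), Kif14 (-0.72), Nuf2 (-0.72), Hmmr (-0.69) and Cdca8 (-0.68), as log2 fold changes over both antibodies in edgeR's test. They were named because they passed that test. Cdkn1b, the inhibitor p27, was called lower in transplants as well, by 0.52 on the log2 scale (edgeR adjusted p = 0.0122), from 88.4 to 136.3 CPM untreated with isotype and 74.1 to 84.8 CPM irradiated.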
